A study of Mus musculus with 2 samples.

Results

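Pou5f1, Sox2 and Nanog encode the core transcription factors of embryonic stem cells, and the regions around them were examined here in maps of chromatin bound by Oct4, the Pou5f1 product. The members were those sWGA peaks whose summit, the position of greatest tag height, lay in 1 of 3 mm9 windows: chromosome 17 from 35.6 to 35.68 Mb (the Pou5f1 window), chromosome 3 from 34.5 to 34.7 Mb (the Sox2 window, with its distal control region) and chromosome 6 from 122.54 to 122.7 Mb (the window of Gdf3, Dppa3 and Nanog). They numbered 20 of 33783 sWGA peaks: 1 at Pou5f1, 6 at Sox2 and 13 at Gdf3, Dppa3 and Nanog. In the same windows lay 6 of the 750 regions called on the control library.

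Both libraries came from ZHBTc4 F-Oct4 mouse embryonic stem cells, a line known for disrupted Pou5f1 alleles and for Oct4 supplied from transgenes, here with a Flag tag. Tags from a transgene and from the endogenous Pou5f1 gene cannot be told apart where their sequence is the same. Per the antibody field and descriptions, chromatin was immunoprecipitated with anti-Flag antibody, although the title of the sWGA library reads alpha-Oct4. It was then bound to sWGA, succinylated wheat germ agglutinin, a lectin that binds N-acetylglucosamine, or carried through a control second step that the labels call input, IgG and agarose beads in different places. The data are 1 library per group, with 6129874 sWGA tags and 78351 control tags after the caller's filter, so no difference between the groups has a replicate error.

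O-GlcNAc is a single sugar that the enzyme Ogt attaches to serine and threonine residues of nuclear and cytoplasmic proteins, Oct4 among them. Oct4 reads an octamer through its POU domain, and Sox2, an HMG-box factor, binds beside it on composite sites in enhancers of pluripotency genes. Pou5f1, Sox2 and Nanog are textbook targets of the proteins they encode. The chromosome 6 genes are expressed together in pluripotent and germ cells: Gdf3 is a ligand of the TGF-beta family, Dppa3 (Stella) is a maternal factor that protects DNA methylation after fertilisation, and Nanog is a homeobox factor that sustains self-renewal.

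The promoters of the genes that name the windows are shown for the element that Oct4 and Sox2 are known to read. RefSeq promoter sequences (build GRCm38.p6) were matched for 3 of the 5 genes, Pou5f1, Sox2 and Nanog. The 250 bases before the outermost listed start site are given 5′ to 3′, with matches in capitals:
Nanog: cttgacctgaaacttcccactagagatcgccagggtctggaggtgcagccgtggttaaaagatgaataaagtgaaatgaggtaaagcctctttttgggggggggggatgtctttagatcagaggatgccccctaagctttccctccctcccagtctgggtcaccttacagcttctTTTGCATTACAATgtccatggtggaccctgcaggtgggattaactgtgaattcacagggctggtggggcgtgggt
Sox2: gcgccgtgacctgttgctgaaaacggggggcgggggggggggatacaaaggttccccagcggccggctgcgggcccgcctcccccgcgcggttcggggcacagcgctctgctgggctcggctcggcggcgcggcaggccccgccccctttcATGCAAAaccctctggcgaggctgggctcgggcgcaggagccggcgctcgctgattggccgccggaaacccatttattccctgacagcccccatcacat
Pou5f1: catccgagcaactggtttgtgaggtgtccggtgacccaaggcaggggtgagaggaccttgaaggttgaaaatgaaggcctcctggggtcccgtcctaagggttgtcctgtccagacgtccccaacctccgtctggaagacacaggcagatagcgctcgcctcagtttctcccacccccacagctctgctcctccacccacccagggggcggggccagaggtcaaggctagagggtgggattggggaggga

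The capitals mark the octamer core ATGCAAA and, in Nanog, a Sox and octamer pair (ATTGT and ATGC with 1 base between them), both searched on either strand. In Nanog the 2 motifs overlap and read on the reverse strand, 75 to 63 bases before the outermost start site. From a second listed Nanog start site they lie 151 to 139 bases before it. In Sox2 the octamer core lay on the forward strand, 99 to 93 bases before the start. Pou5f1 had 0 matches in this window. Over 32851 promoters of 300 bases, 50 of them after the start, 4.63% held ATGCAAA and 0.183% held the pair. The full octamer ATGCAAAT, held by 1.74% of promoters, was found in none of the 3 genes. These letters describe the genes only. The peaks are in mm9 and the gene table is in another build, so neither the sequence under a peak nor its distance to a gene was analysed here. In the gene table the protein-coding order is H2-Q10, Pou5f1, Tcf19 and Cchcr1 on chromosome 17, and Dnajc19, Sox2 and Atp11b on chromosome 3. On chromosome 6 it is Apobec1, Gdf3, Dppa3, Nanog and Slc2a3.

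Across the windows the 20 sWGA peaks resembled the rest of the list in strength and were unequal in number. Their median was 11.5 tags (10 to 35), against 11 over all 33783 peaks. The median length was 436.5 bp (199 to 844) against 419 bp. The median fold, which is the caller's tag height at the summit over its background expectation and is the authors' own value, was 15.75 (9.07 to 45.27) against the same 15.75. The score is -10 times the log10 of the p-value that the caller gave a peak, and peaks scoring at least 100 numbered 7 of 20 (35.0%, exact 95% interval 15.4 to 59.2), and 33.9% of all peaks reached that score. At least 18 tags were held by 5 of 20 (25.0%, 8.66 to 49.1), against 21.4% of all peaks. Peaks of 9 to 12 tags were 13 of 20 (65.0%, 40.8 to 84.6), against 62.3%. An FDR of at most 5% was given to 9 of 20 (45.0%, 23.1 to 68.5), against 55.7%. Among the 20 the FDR rose with the score, from 2.22% at a score of 50.28 to 26.31% at 215.85. A low FDR therefore does not mark a strong peak here. All these shares lay near those of the whole list, and the intervals cover counting error only and treat neighbouring peaks as independent.

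**Figure D1:**
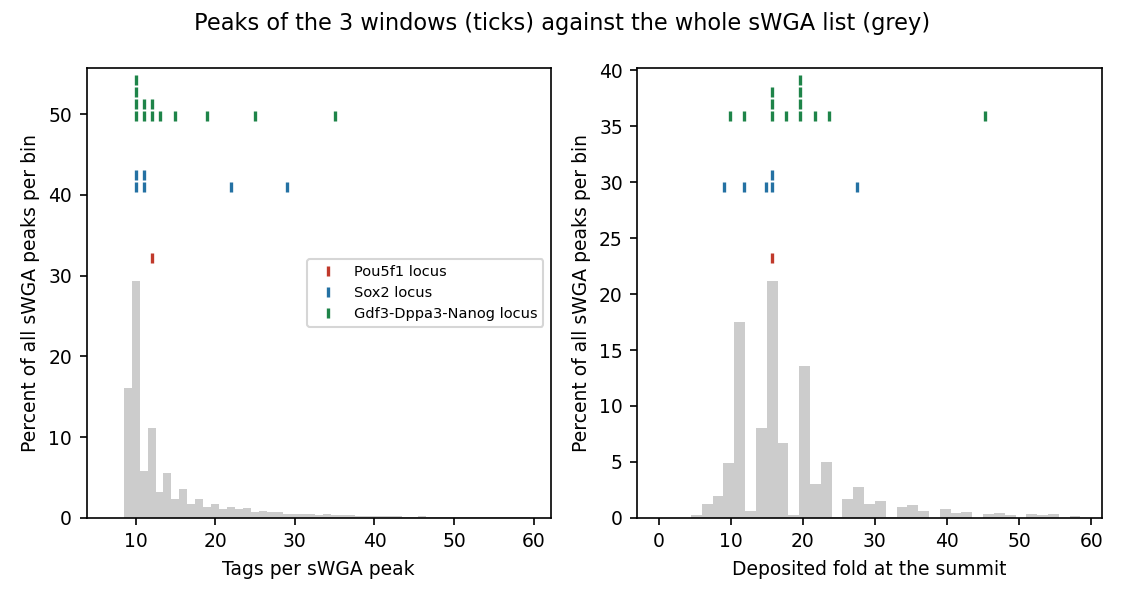
Tags (left) and deposited fold (right) of the peaks in the 3 windows, 1 tick per peak stacked where values tie, above the share of all 33783 sWGA peaks per bin in grey; both axes end at 60, beyond which the list goes on. Most ticks sit over the bulk of the list, and 35 tags and a fold of 45.27 are the highest values.

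The Pou5f1 window held a single sWGA peak. It lay on chromosome 17 at 35626517 to 35626911, with its summit at 35626800, and was 395 bp long. It held 12 tags (exact Poisson 95% interval 6.20 to 21.0), of which 8 stood at the summit, for a fold of 15.75, a score of 88.56 and an FDR of 5.19%. The caller kept up to 2 sWGA tags per position, and the tag intervals here and below treat all tags as independent. At least as many tags were held by 48.9% of all sWGA peaks, and a fold as high by 65.3%. By tags, fold and score it thus stood near the middle of the list. The nearest other sWGA summit was 50.8 kb away, outside the window, in a peak of 13 tags at 35575876 to 35576200. On the other side the next was 50.9 kb past the edge, with 16 tags at 35730785 to 35731331.

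At 12.5 peaks per Mb the Pou5f1 window stood at 0.931 of the density of the other autosomal sequence, 13.4 per Mb (interval on the ratio 0.0236 to 5.18). Of 30884 windows of 80 kb tiled over the autosomes, 56.7% held at least 1 sWGA peak. The median window held 1, as here, and the highest count was 20.

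Control regions, in contrast, were crowded in the Pou5f1 window. There were 3, with 25 tags together, within 4.51 kb of chromosome 17. The first, at 35642971 to 35643473, held 11 tags. Next came 35646092 to 35646553 with 4 tags, and 35646894 to 35647483 with 10 tags. Most control regions were far thinner, since 76.7% of the 750 held 3 tags. The summits lay 16.3, 19.6 and 20.5 kb from the summit of the Pou5f1 sWGA peak. The caller kept at most 1 control tag per position, so these tags had different positions or strands. If the control tags were spread evenly, the whole 80 kb would hold 3.35. Of the tiled windows 2.13% held at least 1 control region and 0.0162% (5 windows) held at least 3. The density was 37.5 regions per Mb against 0.282 elsewhere on the autosomes, a ratio of 133 (27.5 to 389). That interval treats the 3 regions as independent although they lie within 4.51 kb, so it is too narrow if they arose together. The nearest other control region was 1138 kb beyond the window. The lists do not show whether such tags came from the genomic locus or from introduced DNA of the same sequence, and these cannot be told apart here or at Sox2.

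Sox2, which the protein Oct4 partners on composite sites, had 6 sWGA peaks in 200 kb, and 2 of them were strong. The peak with the most tags lay on chromosome 3 at 34567302 to 34567788. It held 29 tags (19.4 to 41.6) in 487 bp, 18 of them at the summit, with a fold of 14.84 and a score of 165.94. The other strong peak lay 76.9 kb further along, at 34644074 to 34644622, with 22 tags (13.8 to 33.3) in 549 bp. Its fold of 27.55 was the highest of the window, on 14 tags at the summit, and its score was 172.91. Both rank high in the list: 8.16% of all peaks held at least 29 tags and 14.9% at least 22. Their tag intervals overlapped, and the 2 counts were not tested against each other.

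These 2 Sox2 peaks change order with the measure. By fold the peak with 29 tags was near the middle of the list, where 65.7% of peaks had a fold as high, and the peak with 22 tags was in its upper part (14.0%). The backgrounds differed: 1 control tag within the 10 kb window had set that of the first, at 1.21 tags per fragment of 155 bp, and the genome-wide rate had set that of the second, at 0.508. At the same height the first background gives a fold 2.39 times lower. In tags per kb of peak the first stood at 59.5, the highest of all 20 peaks, and the second at 40.1.

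The other Sox2 peaks were weak. At 34537540 to 34537833 there were 11 tags, all at the summit, with a fold of 9.07 and a score of 50.28, just over the caller's limit of 50. A control tag within the 10 kb window set its background too. At 34560407 to 34560829 there were 10 tags with 6 at the summit, a fold of 11.81 and a score of 65.89. The remaining pair lay at the far end of the window, 6.76 kb apart from summit to summit. They were at 34688002 to 34688324 with 10 tags and at 34694581 to 34695059 with 11 tags, and each had 8 tags at the summit and a fold of 15.75. The interval was 4.80 to 18.4 around 10 tags and 5.49 to 19.7 around 11 tags, against 19.4 to 41.6 for the peak with 29 tags. Whether such intervals overlap is no test of a difference, and the counts were not tested against each other.

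Sox2 peaks came at 30.0 per Mb, 2.23 times the rest of the autosomes (0.820 to 4.86), and the interval includes 1. At least 6 peaks were held by 12.2% of 12348 tiled windows of 200 kb. The window was well separated, with the nearest outside summits 131 kb before it (21 tags) and 213 kb after it (9 tags).

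The Sox2 window also held 2 control regions, 0.479 kb apart from summit to summit. They lay at 34549334 to 34549639 with 9 tags and at 34549838 to 34550263 with 11 tags. Both sit between the first and second sWGA peaks of the window, with the nearest sWGA summit 10.7 kb from the second. Together their 20 tags exceed the 8.38 that evenly spread control tags would put in the whole 200 kb. Of the tiled windows of that width 5.08% held at least 1 control region and 0.381% at least 2. No other control region lay within 4620 kb of the window.

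**Figure D2:**
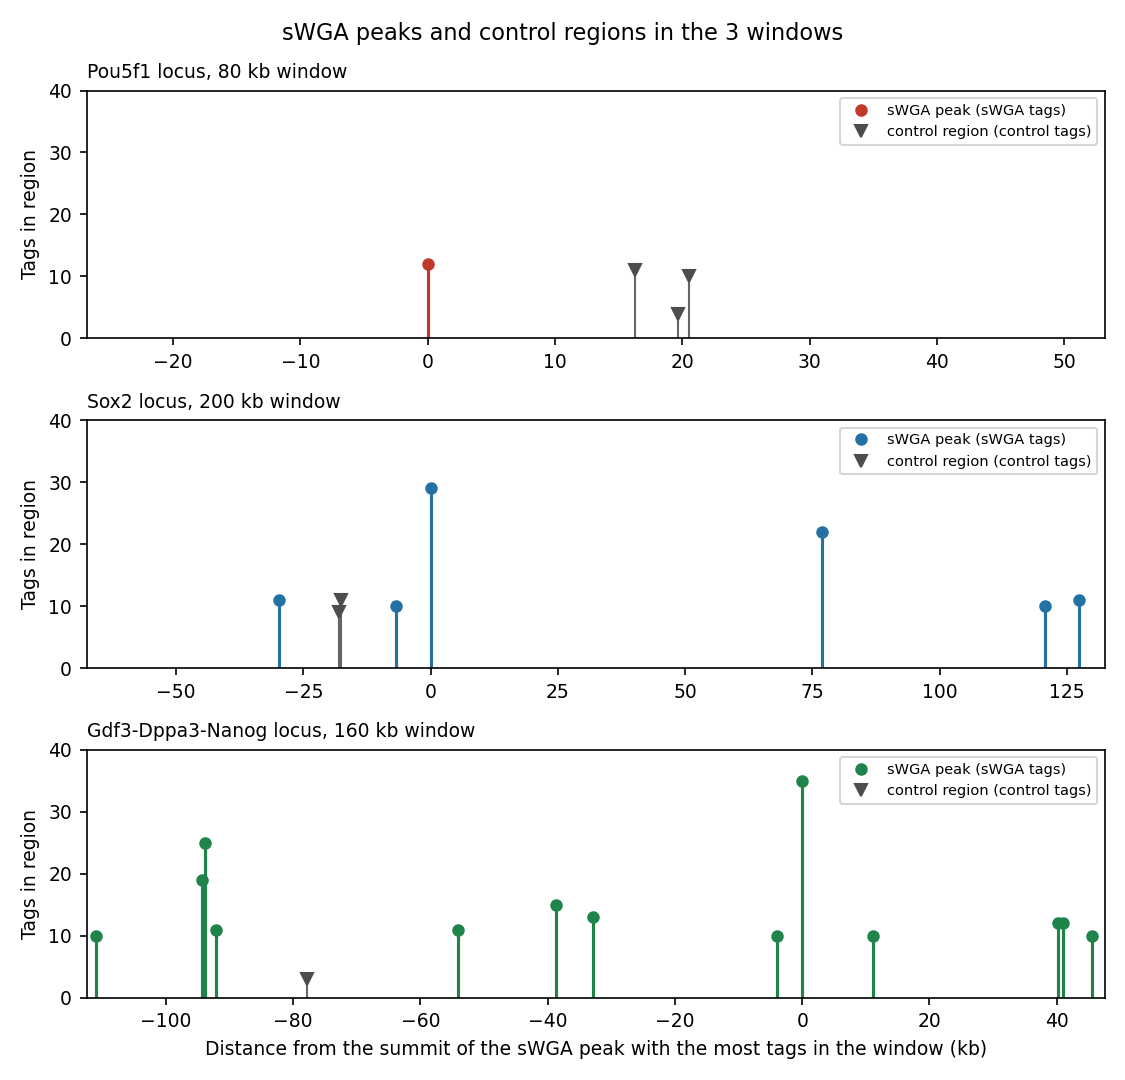
Tags per region (vertical axis) against the distance in kb from the summit of the most tagged sWGA peak of each window (horizontal axis), for sWGA peaks (dots) and control regions (triangles), with each axis spanning the window. The Pou5f1 window has 1 sWGA peak beside 3 control regions, and the Gdf3, Dppa3 and Nanog window has 13 sWGA peaks and 1 control region.

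Gdf3, Dppa3 and Nanog shared the densest of the 3 windows, with 13 sWGA peaks and 193 tags in 160 kb. The density of 81.2 per Mb was 6.05 times that of the rest of the autosomes (3.22 to 10.3). Of 15439 tiled windows of that width, 29 (0.188%) held at least 13 peaks, and the highest count was 25. The interval on this ratio overlaps that of the Sox2 window, and the windows were not tested against each other. Its peaks had a median of 12 tags (10 to 35), against 11 in the whole list. Their median fold was 19.68 (9.90 to 45.27) against 15.75, and their median score was 90.03 against 79.96. Called peaks covered 3.71% of the window, against 1.28% at Sox2 and 0.494% at Pou5f1.

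The peak with the most tags in any window lay on chromosome 6 at 122652313 to 122653156. It was also the longest, at 844 bp, a length that 2.03% of all peaks reached. It held 35 tags (24.4 to 48.7), a number that 5.28% of all peaks reached. With 12 tags at the summit, 34.3% of the peak's total, it was the flattest of the 20, where the median share was 72.7% here and 72.7% in the whole list. Its fold of 9.90 was low, over a background set by 1 control tag within the 10 kb window, and its score was 148.42. A peak of 10 tags stood 3.97 kb before it, at 122648120 to 122648581, with a fold of 11.81.

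A compact cluster near the start of the chromosome 6 window held the highest fold. The peak at 122558485 to 122558990 had 25 tags (16.2 to 36.9), 23 of them at the summit, for a fold of 45.27 and a score of 215.85, both the highest of the 20. Of all sWGA peaks 4.04% had a fold as high. It adjoined a peak of 19 tags and a fold of 23.62 at 122557857 to 122558483, with 1 base between them and 0.515 kb between summits. A weaker neighbour at 122560092 to 122560519 had 11 tags and a fold of 17.71. The cluster thus gave 3 of the 13 peaks and 55 of the 193 tags of the window.

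The most tagged peak and the peak of highest fold of the chromosome 6 window were 93.8 kb apart and differed in shape. The first spread 35 tags over 844 bp, and the second put 92.0% of its 25 tags at the summit. Their backgrounds differed as well. Their tag intervals overlapped, which is no test of a difference, and neither the tag counts nor the shapes were tested against each other.

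Further peaks lay between these sites. They were at 122598068 to 122598575 with 11 tags, at 122613503 to 122613914 with 15 tags (fold 21.65, score 107.07) and at 122619349 to 122619793 with 13 tags (fold 19.68). The peak with 15 tags is 1 of the 5 in this window with a score of at least 100. Towards the far end lay peaks at 122663374 to 122663660 with 10 tags, at 122692366 to 122692909 and 122693284 to 122693687 with 12 tags each, and at 122697820 to 122698089 with 10 tags. The 2 peaks of 12 tags had summits 0.778 kb apart. The peak nearest the start of the window, at 122541326 to 122541524, was the shortest of the 20 at 199 bp. All of its 10 tags stood at the summit, and its score of 136.24 was well above the 79.28 of the peak at 122663374, which held the same 10 tags, all at the summit, in 287 bp.

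The edges of the chromosome 6 window cut through a continuing group of peaks at its far side. The last summit inside was 2.05 kb from the edge and the first outside was 1.85 kb past it, in a peak of 14 tags at 122701646 to 122701968. Before the window the nearest summit was 98.1 kb away, with 20 tags. One control region lay inside, at 122574599 to 122574755, with 3 tags, 14.3 kb from the nearest sWGA summit. At least 1 control region was found in 4.16% of the tiled windows of that width.

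The sWGA library was also dense around the control regions, with the same limit on where the tags came from. A control fold sets the height in control tags against the sWGA tags around the summit, so it bounds the number of sWGA tags there when the height is taken to lie between the mean coverage of the region and its number of tags. That range held for 99.3% of the 271 control regions whose height could be read directly, which were those at the genome-wide sWGA background. A greatest height lies in that range almost by definition, so the share is no check on the regions of these windows, whose background was local. Around the Pou5f1 region of 11 tags, with a fold of 0.45, the sWGA library had 56.7 to 159 tags per kb, against a genome-wide mean of 3.28. Around the Pou5f1 regions of 4 and 10 tags it had 21.7 to 44.1 and 34.3 to 116 tags per kb.

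At Sox2 the control regions of 9 and 11 tags, with folds of 1.78 and 1.33, gave 18.1 to 32.7 and 24.2 to 53.6 sWGA tags per kb. The control region of 3 tags on chromosome 6, with a fold of 0.35, gave 54.5 to 56.1. The 6 lower bounds were 5.51 to 17.3 times the genome-wide mean, where the median lower bound over all 750 control regions was 3.99 tags per kb. Most of the 750 held 3 tags. After control regions were joined over gaps of up to 10 kb, groups with more than 25 tags had highest lower bounds of 5.99 to 1023 tags per kb. High bounds were thus also found outside these windows, in groups of more tags. The chromosome 6 region of 3 tags was not set against other regions of 3 tags. Called sWGA peaks in the windows held 21.6 to 59.5 tags per kb over their own, shorter length. The sWGA density around the 6 control regions of the windows thus overlapped that inside called peaks.

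**Figure D3:**
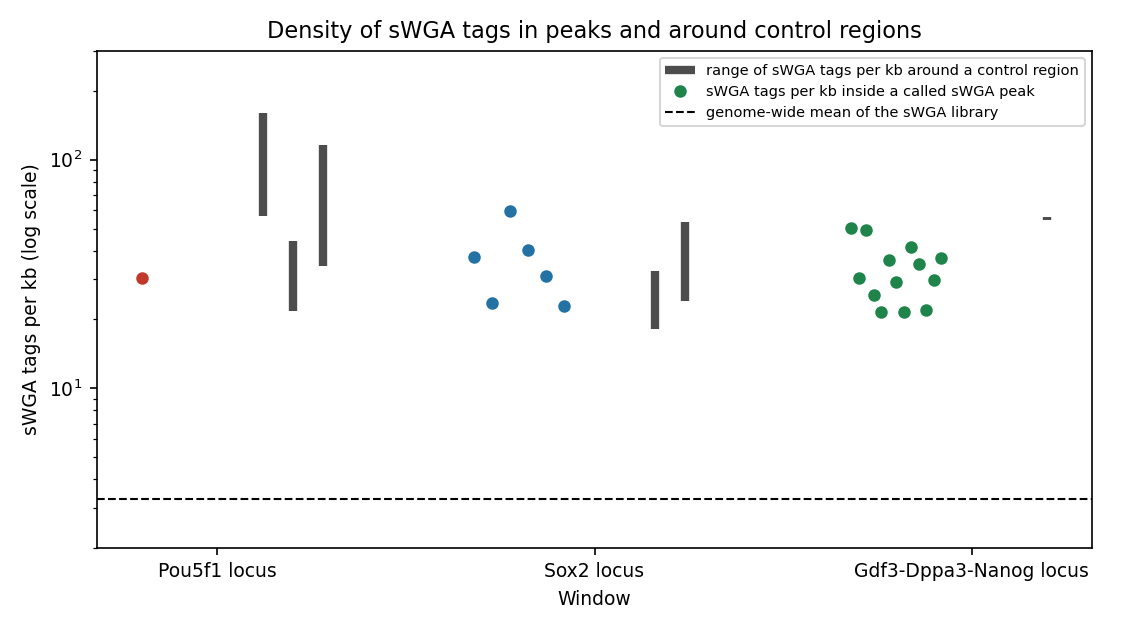
Density of sWGA tags in tags per kb on a log scale, by window, inside each called sWGA peak (dots) and around each control region (bars from the lower to the upper bound), with the genome-wide mean of 3.28 as a dashed line. The bars lie 5.51 times or more above that mean, and the upper Pou5f1 bar starts at 56.7.

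Of the 6 control regions 4 held at least 9 tags, as did 3.87% of the control list, and 4 had a fold under 1, as did 12.9%. Scored again at the unscaled rate of the control library, the regions reached 288, 107 and 253 at Pou5f1, 255 and 297 at Sox2 and 101 on chromosome 6, where the median of the control list was 97.8. The deposited scores, 3100 in 5 regions and 2831 in the other, rest on scaled tags and do not rank them.

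What the caller asks of an sWGA peak depends on control tags beside it. For a region of the median length, 419 bp, the limit is passed with 9 sWGA tags at the genome-wide background, with 60 where 1 control tag lies in the 1 kb window, with 143 for 3 control tags and with 444 for 11. The most tagged of the 20 peaks held 35 tags. An sWGA peak of such strength could therefore not have been listed at the Pou5f1, Sox2 or chromosome 6 control regions, and the absence of sWGA peaks there is no measure of what the lectin step recovered. For 3 of the 20 peaks (15.0%, 3.21 to 37.9) a control tag farther off had set the background, against 8.79% of all peaks.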

How the data were processed

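Oct4-bound chromatin of ZHBTc4 F-Oct4 cells was profiled in 1 sWGA and 1 control library. Per the labels' protocols, chromatin was sonicated to between 100 and 500 bp, and fragments of 200 to 300 bp were amplified over 18 cycles and read for 76. Coordinates are mm9 (per the submitters' processing notes), and the aligner is not given in the sources used here. Regions come from MACS 1.4.1 with a p cutoff of 1e-05, a fragment length of 155 bp, an effective genome of 1870 Mb and local windows of 1 and 10 kb, per the file headers. The filter kept 6129874 sWGA tags (36.7%) and 78351 control tags (21.4%), and the smaller library was scaled up 78.2 times. The control list carries no header, and its name marks it as the negative list, in which the libraries are exchanged.

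The deposited counts are whole tags per region, and the deposited score is -10 times the log10 of a Poisson p-value. As a ratio, the deposited fold divides the summit height by whichever expectation is higher, genome-wide or local, and the deposited FDR is a percent given for the sWGA list alone. Folds were read as whole tags within 0.01 tags, so that 1 summit tag at the genome-wide expectation is a fold of 1.97. The control list's folds are read as unscaled control tags over sWGA tags: among 162 control regions of 3 tags with a height of 3 and a precisely readable fold, 108 (66.7%) gave whole sWGA tags per kb, where 2.56% would by chance.

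Values were computed with Python 3.11.15, numpy 2.4.6, pandas 2.3.3 and scipy 1.17.1. No test between groups was made. Densities were set against the rest of the autosomes, taken up to the last region listed on each chromosome, with an exact Poisson 95% interval on the count. The interval treats neighbouring regions as independent. The windows and members were chosen with earlier results of these data known, and the motif search was moved to promoters, chosen after the files were seen. Named regions were all those with a summit in a window. A planned count at other pluripotency genes was not made, since no mm9 gene positions were used here.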

Additional observations from a re-analysis of the deposited data

How the results depend on the processing

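No paired analysis was possible because there is a single library on either side, which also leaves no replicate to omit. Of 43 alternative values 32 stayed within 1.5 times the count reported or within the 95% interval of the ratio or median reported, and 11 moved. The intervals of the medians are wide: with a minimum score of 100 the median tags were 25.5 at Sox2, against 11, and 19 on chromosome 6, against 12, and both are counted among the 32. With a minimum score of 100 the peak counts were 0 at Pou5f1, 2 at Sox2 and 5 at Gdf3, Dppa3 and Nanog, and with at least 18 tags they were 0, 2 and 3. An FDR of at most 5% left 0 at Pou5f1 and 5 on chromosome 6. That alternative removes strong peaks, since the caller's FDR rises with the score. The density ratio at Pou5f1 was 0 with either minimum, as its 1 peak was lost by construction. With the windows widened by 50 kb on each side Pou5f1 had 3 peaks. The density ratio of the chromosome 6 window was 5.16 to 6.87 under the 4 alternatives and that of the Sox2 window 1.49 to 3.50. Control counts were the same in the widened windows and with any overlap. No median could be given for Pou5f1 with a minimum score of 100. The control library was shallow, with 1 tag per 23.9 kb if spread evenly, which limits any reading of where control tags are absent.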

Other observations

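The control list, joined over gaps of up to 10 kb, formed 701 groups, of which 679 were single regions. Ordered by tags over all 701, the Pou5f1 group (25 tags) ranked 14, and the Sox2 group (20 tags) ranked 15, tied with a group on chromosome Y. Both were among the 11 autosomal groups of at least 20 tags. Neither had an sWGA peak within 10 kb, but control tags raise the number of sWGA tags that a listed peak needs. The absence is therefore no trait particular to these groups, and the share over all 701 groups is not given here. Whether the regions of these groups lie on exons, and whether their tags came from introduced DNA such as a transgene, vector or cDNA, was not tested, since no mm9 gene positions were used.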
